A study of Mus musculus with 35 samples.

Results

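Gene expression in whole lung was compared between mice that breathed styrene at 1 ppm, the lowest concentration of a concentration series, and mice that breathed air alone. The comparison used 10 of the series' 35 arrays, 5 from mice at 1 ppm and 5 from mice in air, taken by the dose in the sample labels. The other 25 arrays came from mice at 5, 10, 20, 40 and 120 ppm, with 5 mice in each group. All were adult male CD-1 mice, an outbred stock, so mice of a group also differed in their genes. Each mouse gave 1 array, RNA was taken from whole lung, and the labels name no engineered allele. The labels disagree on the length of exposure: the protocol gives 6 hours once and the sample titles 1 day, but 5 days stand in the title of the series and among the characteristics of each sample. In both accounts the mice were killed on the morning after exposure ended.

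Styrene is a volatile solvent used in plastics and resins. In the mouse lung it is oxidised by cytochrome P450 enzymes, above all by CYP2F2 in club cells, the secretory cells of the small airways, to styrene oxide and to ring-oxidised products. Styrene oxide can bind protein and DNA, and it is cleared by epoxide hydrolase and by conjugation to glutathione. Club cell injury and renewal in the bronchioles are known effects of styrene at higher concentrations in mice.

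**Figure D1:**
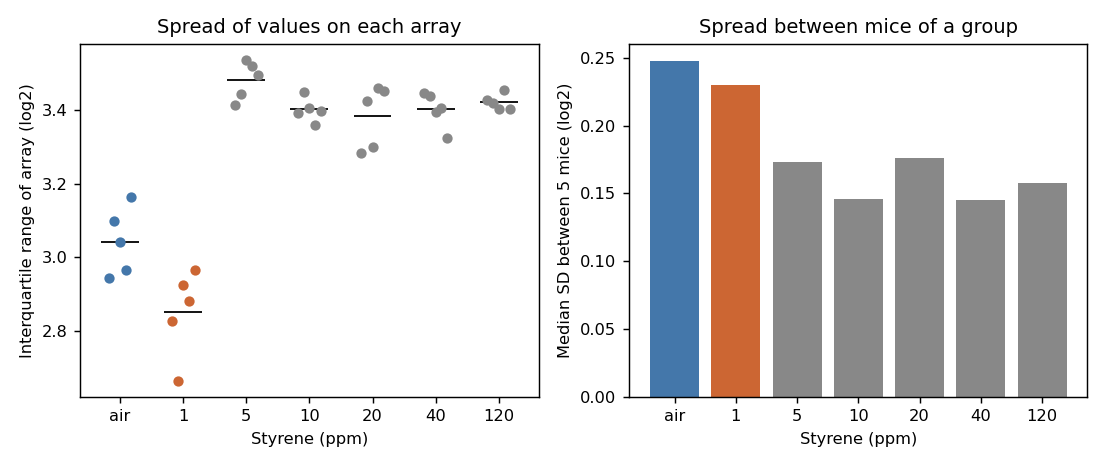
Left, the interquartile range of log2 values on each array (log2 units) against styrene concentration (ppm), with 1 point per mouse and a bar at the group mean. Right, the median over all genes of the standard deviation between the 5 mice of a group (log2 units). The arrays in air and at 1 ppm had narrower distributions than all arrays from 5 ppm up, and mice of these groups differed more from each other.

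Few genes differed between 1 ppm and air once only the mice of these groups set the error. With the spread between mice estimated over all 35 arrays, limma called 420 of 17097 genes at a Benjamini-Hochberg adjusted p under 0.05, which is 2.46% of those tested. Of these, 165 (0.965%) were higher at 1 ppm and 255 (1.49%) lower. When the 10 arrays of the comparison were fitted alone, 3 genes were called (0.0175%), all lower. The groups differed in how much their mice varied. The median standard deviation of a gene between mice was 0.248 log2 in air and 0.230 at 1 ppm, but 0.145 to 0.176 in the groups from 5 to 120 ppm, and the median standard error of a change was 0.129 in the fit of 35 arrays and 0.157 in the fit of 10. A fit that gave each group its own weight called 17 genes, 6 higher and 11 lower. The count of 420 also depended on single mice: limma called 197, 275 and 254 genes without air mouse 2, 3 or 5, 179 without mouse 2 at 1 ppm and 687 without mouse 3 at 1 ppm. Without any adjustment, 2664 genes (15.6%) had a p under 0.05 in the fit of 35 arrays and 1347 (7.88%) in the fit of 10. The genes described below are those of the 35-array fit, and where 2 adjusted p-values stand together the second is from the 10 arrays alone. Of the 48 called genes named, 29 stayed called whichever of the 10 mice was left out.

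Most differences at 1 ppm were small. Of the 420 genes called, 28 of the higher and 92 of the lower differed at least 1.5-fold. At least 2-fold differences were found for 0 of the higher and 2 of the lower. Over all genes, called or not, the change was at least 2-fold for 21. The 95% interval of the change, from the 10 arrays alone, lay within 2-fold in either direction for 16440 genes (96.2%) and within 1.5-fold for 11965 (70.0%). The 5 values in air and the 5 at 1 ppm did not overlap for 213 genes (1.25%), 79 of them higher at 1 ppm (0.462%) and 134 lower (0.784%). Among the called genes this held for 48 of the higher and 72 of the lower.

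Abhd10, Plekhg1 and Taf5 were the genes called lower with the 10 arrays alone. Abhd10 encodes a mitochondrial thioesterase. Its log2 values in the air mice were 5.26, 5.22, 5.27, 5.14 and 5.41, and at 1 ppm 4.38, 4.03, 4.45, 4.41 and 4.22. Every mouse at 1 ppm lay below every mouse in air, and the log2 change was -0.96 ± 0.0987 (SE, n = 5 per group), a 1.95-fold fall (limma, adjusted p = 6.65e-07, and 0.0280 from the 10 arrays alone). A second probe set of Abhd10 also gave a negative value (-0.13) and was not called. Plekhg1 had values of 4.71, 4.55, 5.17, 4.80 and 5.11 in air and 4.04, 3.54, 3.71, 3.64 and 3.77 at 1 ppm. Its groups did not overlap either, with a change of -1.13 ± 0.188 or 2.18-fold (limma, adjusted p = 0.00123 and 0.0280). The other probe set of Plekhg1 gave -0.35 and was not called. Taf5 encodes a subunit of the general transcription factor TFIID. It had values of 5.22, 5.09, 4.94, 5.14 and 5.25 in air and 4.12, 3.92, 4.07, 4.43 and 4.36 at 1 ppm. The lowest air mouse was above the highest mouse at 1 ppm, and the change was -0.95 ± 0.125 (limma, adjusted p = 4.74e-05 and 0.0280). With 1 weight per group Abhd10 and Taf5 stayed called and Plekhg1 did not. Fits of the 10 arrays after quantile normalization or cyclic loess called 0 genes, so the calls of Abhd10, Plekhg1 and Taf5 were lost there. They were also lost on the deposited values with a trended and robust prior or with the mouse number as a term (0 genes called in each). The interquartile range of the array as a covariate likewise left 0 calls in the 10 arrays, and array weights left 2.

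**Figure D2:**
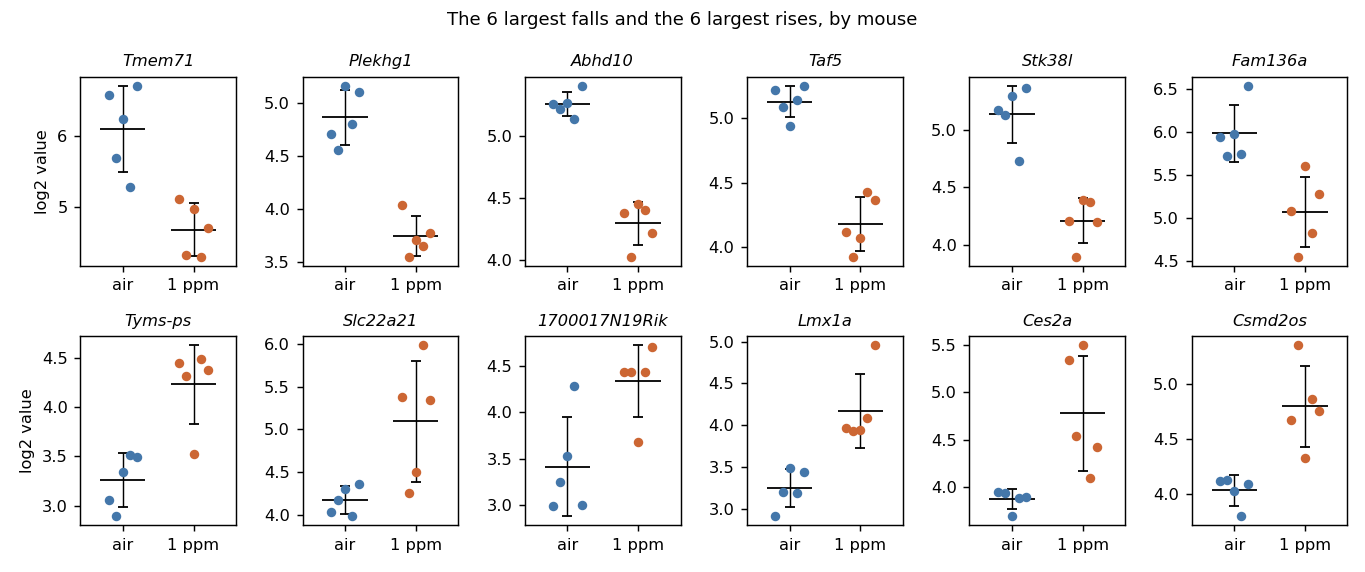
Log2 values of the 6 genes with the largest falls (upper row) and the 6 with the largest rises (lower row) among called genes at 1 ppm, with 1 point per mouse and the mean ± SD of 5 mice per group. The upper 6 genes show no overlap between groups, whereas in the lower row Slc22a21 and 1700017N19Rik overlap with the air mice.

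The largest fall among called genes was that of Tmem71, which encodes a membrane protein. Its log2 values were 6.59, 5.69, 6.25, 5.28 and 6.72 in air and 5.11, 4.32, 4.97, 4.29 and 4.70 at 1 ppm. The groups were separate but each spanned a wide range, and the change of -1.43 ± 0.262 (2.69-fold; limma, adjusted p = 0.00374) was not called from the 10 arrays alone (adjusted p = 0.252). Stk38l, a protein kinase of the NDR family, fell from 5.17, 5.14, 5.29, 4.73 and 5.36 to 4.20, 3.89, 4.39, 4.37 and 4.20. That change of -0.93 ± 0.121 came from 1 of its 3 probe sets, and another had the opposite sign (0.12). Fam136a, a mitochondrial protein, fell from a mean of 5.98 to 5.06 (-0.92 ± 0.142), and its groups did not overlap.

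Other large falls were those of genes with varied roles. Dhx29, a helicase of translation initiation, fell by 0.91 ± 0.137 on the log2 scale. Qtrt2, a subunit of the enzyme that places queuine in transfer RNA, fell by 0.83 ± 0.137, although its other probe set gave 0.50. Rbm43, an RNA-binding protein, fell by 0.84 ± 0.151, and Fyttd1, an adaptor of messenger RNA export, by 0.82 ± 0.191. Of the 4 probe sets of Fyttd1, 2 were negative, and the highest gave 0.17. Stambp, an endosomal deubiquitinase, fell by 0.84 ± 0.123 and Cul2, the scaffold of a ubiquitin ligase, by 0.82 ± 0.172. Setdb1, a histone H3 lysine 9 methyltransferase, fell by 0.83 ± 0.223. Its mice at 1 ppm ranged from 3.88 to 5.66 and overlapped those in air, which ranged from 5.00 to 5.98. Its call was lost when any of 7 of the 10 mice was left out: air mouse 1, 2, 3 or 5, or mouse 1, 2 or 4 at 1 ppm (limma, adjusted p of up to 0.158). The 20 largest falls also held Nin, a centrosome protein (-0.82), Fcgr2b, the inhibitory receptor for immunoglobulin G (-0.80), Prxl2a (-0.80), S100a14 (-0.78), Krtap21-1 (-0.90) and Mtap, the enzyme that salvages methionine from methylthioadenosine (-0.78 ± 0.102). For Mtap the air mice had 6.54, 6.63, 6.80, 6.19 and 6.42 and the mice at 1 ppm 5.50, 5.87, 5.92, 5.70 and 5.71, without overlap. Another probe set had the opposite sign for Prxl2a (0.25), Krtap21-1 (0.12), Mtap (0.01) and Dhx29 (0.005). Each of these genes was called in 1 probe set. The call of Fyttd1 was lost without air mouse 5 or mouse 2 at 1 ppm (limma, adjusted p of up to 0.0698). That of Nin was lost without air mouse 1, 2 or 5 or mouse 1, 2 or 3 at 1 ppm (limma, adjusted p of up to 0.0927). Prxl2a lost its call without any of air mice 2 to 5 or mouse 2 or 4 at 1 ppm (up to 0.15), and Fcgr2b without any of these or mouse 1 at 1 ppm (up to 0.173). From the 10 arrays alone the adjusted p of Mtap was 0.211 and that of Stk38l 0.116 (limma), so neither was called there.

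The largest rises among called genes were in genes whose signal was near the low end of the array's range. Tyms-ps, a pseudogene of thymidylate synthase, had the largest of these. Its log2 values were 3.06, 2.89, 3.34, 3.51 and 3.49 in air and 4.45, 4.31, 3.53, 4.49 and 4.38 at 1 ppm, a change of 0.97 ± 0.167 (limma, adjusted p = 0.0017, and 0.269 from the 10 arrays alone). Mouse 3 at 1 ppm stood just above the highest air mouse and the other 4 well above it. A probe set for a pseudogene can also take up transcripts of its parent gene, and Tyms itself gave 0.17 ± 0.111 (limma, adjusted p = 0.522). Lmx1a, a LIM-homeodomain transcription factor, had 2.91, 3.21, 3.49, 3.20 and 3.45 in air and 3.97, 3.93, 3.94, 4.09 and 4.96 at 1 ppm, without overlap (0.93 ± 0.154; limma, adjusted p = 0.00123 and 0.298). Spata31d1d, of a gene family expressed in sperm, had 4.00, 4.24, 4.42, 4.34 and 4.04 in air and 4.93, 5.17, 5.01, 4.95 and 4.64 at 1 ppm, also without overlap (0.73 ± 0.11; limma, adjusted p = 0.000348 and 0.241).

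Ces2a, a carboxylesterase, was the enzyme of foreign-compound metabolism among the largest rises. Its air mice lay close together at 3.95, 3.94, 3.69, 3.89 and 3.89, and the mice at 1 ppm were spread out at 5.34, 4.54, 5.50, 4.10 and 4.43. The change was 0.91 ± 0.238 (limma, adjusted p = 0.0352 and 0.486). Mice 1 and 3, the highest at 1 ppm, were also the highest for liver genes such as Alb (8.77 and 8.69, against 3.69 to 4.10 in the other mice at 1 ppm). Those other mice, 2, 4 and 5, still had Ces2a of 4.54, 4.10 and 4.43, above every air mouse. In air, mice 1 and 2 had the highest Alb (6.19 and 6.00) and Ces2a of 3.95 and 3.94, against 3.69 to 3.89 in the other air mice. The part of liver transcripts in the rise of Ces2a was not tested. The call of Ces2a was lost without air mouse 2, 3 or 5 or mouse 1, 2 or 3 at 1 ppm (limma, adjusted p of up to 0.0994). Slc22a21, an organic cation transporter, rose by 0.93 ± 0.207 with overlap between groups. Vnn3, of the vanin family of pantetheinases, rose by 0.72 ± 0.118, and Fgf4, a growth factor of the early embryo, by 0.65 ± 0.0956, both without overlap. Npy2r, a receptor for neuropeptide Y, rose by 0.73, Bbs5, a subunit of the complex that carries cargo into cilia, by 0.67, Slc12a3, the sodium chloride cotransporter of the kidney, by 0.63, and Kcnt1, a potassium channel, by 0.59. Another probe set of Kcnt1 gave -0.02. Tssk3, a testis-specific kinase, rose by 0.62 and was called in both of its probe sets. The other large rises were 1700017N19Rik (0.93), Csmd2os (0.77), Hectd2 (0.72), Myo3b (0.69), AI593442 (0.66), Wbp2nl (0.63), Scp2d1 (0.60) and 4933408N05Rik (0.60). Fgf4 had 4 probe sets, of which the lowest gave 0.13. The other probe set gave 0.35 for Hectd2, 0.24 for Slc12a3 and 0.04 for AI593442. Fgf4, Hectd2, Slc12a3 and AI593442 were each called in 1 probe set. Leaving out 1 mouse ended the calls of Hectd2 (air mouse 5), AI593442 and Slc12a3 (mouse 2 at 1 ppm) and Bbs5 (mouse 1 or 4 at 1 ppm). It also ended those of Tssk3 (air mouse 1 or 2, or mouse 1 at 1 ppm), 4933408N05Rik (air mouse 3, or mouse 1 or 2 at 1 ppm) and Myo3b (air mouse 1 or 3, or mouse 1 or 2 at 1 ppm). The adjusted p of these 7 genes then reached 0.0510 to 0.0862 (limma).

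**Figure D3:**
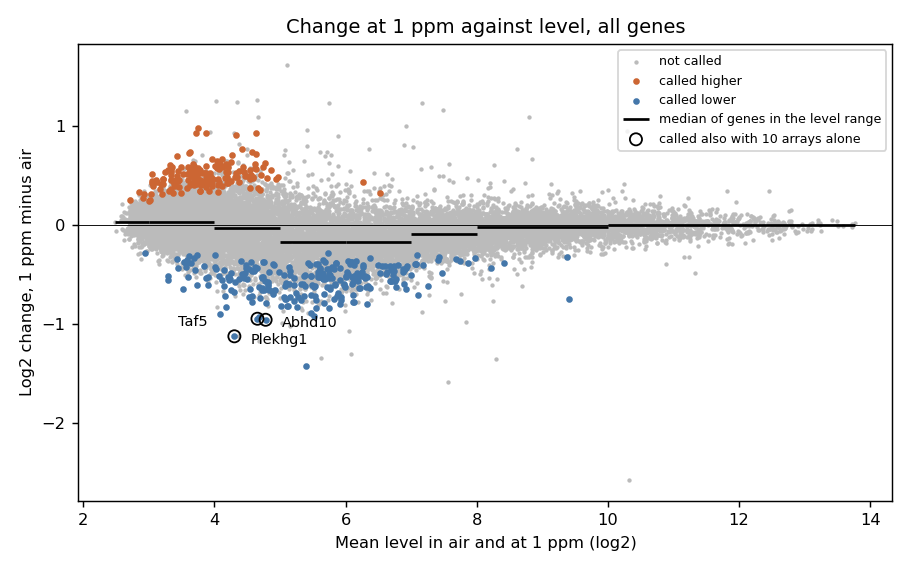
Log2 change at 1 ppm against the mean log2 level over the 10 arrays, with 1 point per gene and genes called in the fit of 35 arrays in colour. Horizontal bars are medians of all genes in a range of level, and the circles mark Abhd10, Plekhg1 and Taf5. Called rises lie almost all under 5 log2, and called falls mostly between 4 and 7, where the median of all genes is also below 0.

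The direction of the calls followed the level of the gene. Of the 165 genes called higher, 163 (98.8%) had a mean under 5 log2, as did 85 of the 255 called lower (33.3%) and 45.1% of all genes. The median level was 3.78 log2 for the genes called higher and 5.57 for those called lower. In each range of level the median of all genes had the sign of most of its calls. Among the 1962 genes between 5 and 6 log2 the median change was -0.18, 22.9% were above 0, and 88 were called lower and 0 higher. Of the 1891 genes between 6 and 7 the median was -0.17 with 64 called lower and 2 higher. Between 3 and 4 log2, where 4430 genes lay, the median was 0.03 and 102 were called higher and 20 lower. Above 10 log2 the 917 genes had a median of -0.00 and 0 calls. These medians depended on the scaling: between 5 and 6 log2 the median was -0.15 after median centring, -0.09 with a common interquartile range, -0.06 after cyclic loess and -0.03 after quantile normalization. Between 7 and 8 log2 it went from -0.09 to 0.16 with a common interquartile range and to 0.03 after cyclic loess. Of the called genes with several probe sets, all probe sets had the same sign for 19 of 39 called higher and for 58 of 128 called lower. With each probe set tested alone, all were called for 2 of the 39 and 4 of the 128. The same shares over all genes are not given here, so these counts have no background.

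The distribution of values on the arrays also differed between the groups. Per array, the interquartile range was 3.04 ± 0.0917 log2 (SD, n = 5) in air and 2.85 ± 0.117 at 1 ppm, a difference of -0.19 in an exact permutation test over all 252 arrangements (two-sided p = 0.0159, adjusted over 2 array measures 0.0317). With 1 probe set per gene the difference was -0.11 (exact p = 0.0635). Arrays in air ranged from 2.94 to 3.16 and those at 1 ppm from 2.66 to 2.97, so they overlapped. On the first principal component of the 10 arrays, which held 23.5% of their variance, the means were -4.73 ± 39.6 in air and 4.73 ± 24.4 at 1 ppm (exact permutation p = 0.698). Correlations between an air array and a 1 ppm array had a median of 0.984, against 0.983 within air and 0.982 within 1 ppm. With the interquartile range as a covariate limma called 78 genes, 33 of them among the 420. Abhd10 and Taf5 remained called (-0.93, adjusted p = 0.000486, and -0.67, adjusted p = 0.0363), and Plekhg1 did not (-0.90, adjusted p = 0.0701). Changes that shrank most were those of Setdb1 (-0.20), Cul2 (-0.26), Fyttd1 (-0.22), Gnptab and Ncapd3, and that of Hdac2, a histone deacetylase, went from -0.72 (limma, adjusted p = 0.0425) to 0.02. Another probe set of Hdac2 gave 0.27, and its call was lost without air mouse 2, 4 or 5 or mouse 1, 2 or 4 at 1 ppm (limma, adjusted p of up to 0.169). The call of Gnptab was lost without air mouse 2, 3 or 5 or mouse 1, 2 or 4 at 1 ppm (up to 0.148), and that of Ncapd3, a condensin subunit, without air mouse 5 or mouse 2 at 1 ppm (up to 0.0625). The labels name no array batch, so a batch that followed the groups cannot be told apart from exposure.

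The scale of the arrays also set the balance of directions. After quantile normalization 211 genes were called higher and 140 lower, after centring each array on its median 168 and 151, and after cyclic loess 100 and 71. When the arrays were also brought to a common interquartile range, 1778 were called higher and 448 lower, and the median change of all genes moved from -0.04 to 0.08.

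Of the genes that oxidise styrene and clear its oxide, 1 glutathione transferase was called in the deposited values. Cyp2f2 had log2 values of 13.14, 12.95, 13.06, 13.10 and 13.07 in air and 13.07, 13.09, 13.02, 12.95 and 13.00 at 1 ppm. The groups overlapped throughout, and the change of -0.04 had a 95% interval of -0.25 to 0.17 from the 10 arrays alone. With the arrays brought to a common interquartile range Cyp2f2 and Cyp4b1 were called higher (0.62 and 0.60; limma, adjusted p = 0.0143 and 0.0144). That scaling stretched the narrower 1 ppm arrays more and moved the median of all genes above 10 log2 from -0.00 to 0.51. These calls therefore show nothing particular to Cyp2f2 or Cyp4b1. Values this high are near the top of the range of the arrays, where differences can be compressed. Cyp2b10 gave 0.06 (-0.30 to 0.43), Cyp4b1 -0.01 (-0.25 to 0.22) and Ephx1, the microsomal epoxide hydrolase, 0.09 (-0.13 to 0.32). Cyp2e1, the other main styrene-oxidising P450, varied widely within both groups, at 7.72, 5.81, 6.29, 7.56 and 6.55 in air and 7.85, 5.07, 8.14, 5.49 and 6.17 at 1 ppm. Its interval of -1.5 to 1.02 covers changes of more than 2-fold in either direction. Over the P450 and other foreign-compound genes, 0 of 23 measured members were called, where 2.46% of all genes were, and their changes ran from -0.76 (Cyp1a1) to 0.28 (Ahrr). At that share a list of this size can hold 0 calls with nothing particular about its genes. The same holds for the counts of 0 in the lists that follow. Of 13 aldehyde dehydrogenases, aldehyde oxidases and alcohol dehydrogenases, 0 were called, with changes from -0.45 (Aox3) to 0.24 (Aox1).

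Gstm5, a mu-class glutathione transferase, fell. It had 6.32, 6.49, 7.17, 6.90 and 6.78 in air and 5.99, 5.94, 6.33, 5.56 and 5.81 at 1 ppm, so that the highest mouse at 1 ppm just reached the lowest air mouse. The change was -0.80 ± 0.151 (limma, adjusted p = 0.0052, and 0.350 from the 10 arrays alone). It lies between 6 and 7 log2, where 18.1% of all genes were above 0. The other 14 glutathione transferases measured were not called, among them Gstm1 (0.08, interval -0.16 to 0.33), Gsta4 (-0.21, interval -0.67 to 0.25), Mgst2 (-0.32) and Gstm3 (-0.22). Of 21 targets of NRF2, the regulator of defence against electrophiles, 0 were called and the median was -0.01. Nqo1, a quinone reductase, gave 0.13 (-0.37 to 0.63), and Hmox1, haem oxygenase, -0.58 (-1.24 to 0.07), with mouse 5 at 1 ppm at 5.58 and the other 9 mice between 6.77 and 7.72.

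**Figure D4:**
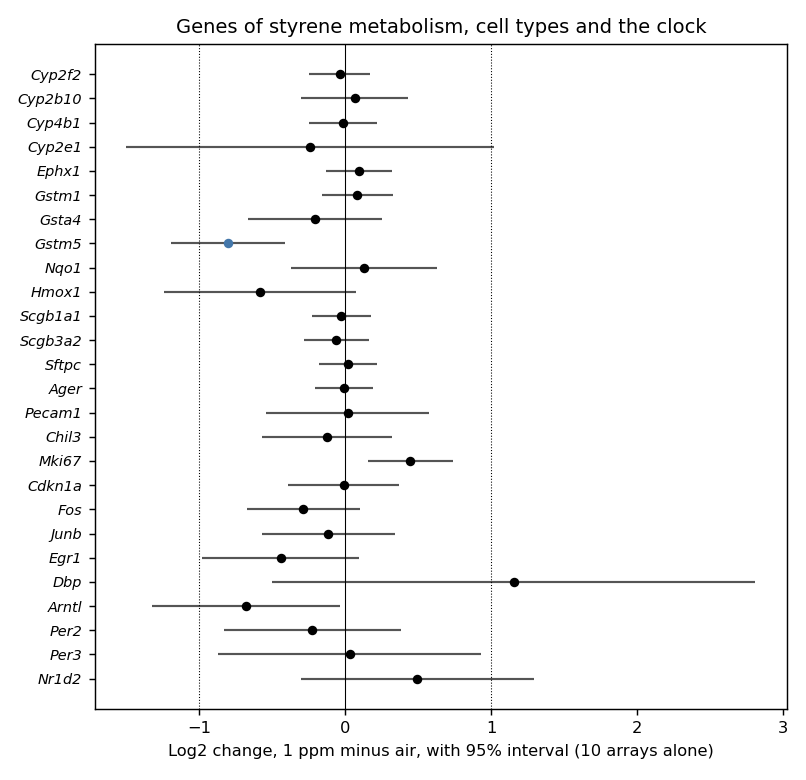
Log2 change at 1 ppm with its 95% interval from the 10 arrays alone, for 26 genes of styrene metabolism, defence, lung cell types, growth and the clock. Dotted lines mark 2-fold. Gstm5, in blue, is called in the fit of 35 arrays, and the widest intervals are those of Dbp and Cyp2e1.

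Among DNA repair genes 2 of 19 were called, both lower, where 1.49% of all genes were called lower. Parp1, which senses DNA breaks, had 6.97, 7.45, 7.51, 7.58 and 7.81 in air and 6.63, 6.81, 6.88, 6.88 and 6.56 at 1 ppm. The groups did not overlap, with a change of -0.71 ± 0.118 (limma, adjusted p = 0.00123 and 0.298), but of its 3 probe sets only this 1 was called and another gave 0.14. Brca2, which acts in the repair of DNA breaks, had 3.92, 4.13, 4.20, 4.27 and 4.18 in air and 3.55, 3.75, 3.80, 3.42 and 3.51 at 1 ppm, also separate (-0.53 ± 0.116; limma, adjusted p = 0.0132 and 0.301). The median of the list was -0.05, near the -0.04 of all genes. Of 17 p53 targets 0 were called, and Cdkn1a, which halts the cell cycle, gave -0.01 (-0.39 to 0.37).

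In the list of 28 mitosis genes 0 were called, with 17 above 0 and 11 below. Mki67, a marker of cycling cells, had 3.81, 3.61, 4.05, 3.65 and 3.82 in air and 4.58, 4.27, 4.03, 4.15 and 4.14 at 1 ppm. Mouse 3 at 1 ppm overlapped the air mice, and the change of 0.45 (0.16 to 0.74) did not pass (limma, adjusted p = 0.125 and 0.509). Birc5 (0.57) and Top2a (0.45) were not called either. Mki67 lies between 3 and 4 log2, where 56.8% of all genes were above 0. Of 21 replication genes 0 were called, with a median of 0.06.

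Markers of the lung's own cells marked the tissue as labelled and were not called. Scgb1a1, the secretoglobin of club cells, lay between 13.68 and 13.83 in air and between 13.67 and 13.75 at 1 ppm. Sftpc of alveolar type 2 cells gave 0.02 (-0.18 to 0.22), Ager of alveolar type 1 cells -0.01 (-0.21 to 0.19) and Pecam1 of endothelium 0.02 (-0.54 to 0.58). In these lists, 0 of 17 club cell, 14 type 2, 12 type 1 and 18 endothelial markers were called, where 2.46% of all genes were. Many of these markers lie above 8 log2, where calls were rare over all genes (4 of 2651 between 8 and 10 log2, 0 of 917 above 10). The counts of 0 thus say little about these cells. Of the club cell markers 16 of 17 were below 0, with a median of -0.23. Over all genes 10277 of 17097 were below 0, which is the background for such counts here and in the lists that follow. The lowest were the airway secretory genes Bpifa1 (-2.58), Bpifb1 (-1.35) and Muc5b (-0.77), and Gabrp (-0.62), a subunit of the GABA receptor. None of these was called, and the brightest club cell markers Scgb1a1, Cyp2f2 and Scgb3a2 gave -0.03, -0.04 and -0.06. Even a called fall in whole lung could not tell fewer cells of a type from less RNA per cell. Ciliated cell markers were below 0 in 15 of 17, with a median of -0.13 and the lowest value in Rsph1 (-0.70). The club and ciliated medians stayed negative under all 4 other scalings, from -0.21 to -0.03, as did the neutrophil median (-0.20 in the deposited values, 0 of 16 called).

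Bpifa1, a secreted protein of the upper airway, had the most negative change of all genes and was not called. Its log2 values were 13.03, 7.64, 11.55, 13.24 and 12.61 in air and 9.48, 7.23, 12.40, 5.10 and 10.99 at 1 ppm. Mouse 2 in air and mice 2 and 4 at 1 ppm were low (limma, adjusted p = 0.422). Bpifb1, a related protein, was lowest in air mouse 2 (4.14) and in mouse 4 at 1 ppm (4.22), with 7.65 to 11.30 in the other 8 mice. Muc5b, a gel-forming mucin, was 5.70 in air mouse 2 and 6.68 and 5.41 in mice 2 and 4 at 1 ppm, against 6.79 to 8.92 in the other 7 mice. Krt5, a keratin of basal cells in the large airways, was high in air mice 1 and 4 (6.15 and 6.84) and in mouse 3 at 1 ppm (7.16) and between 4.08 and 4.56 in the others.

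**Figure D5:**
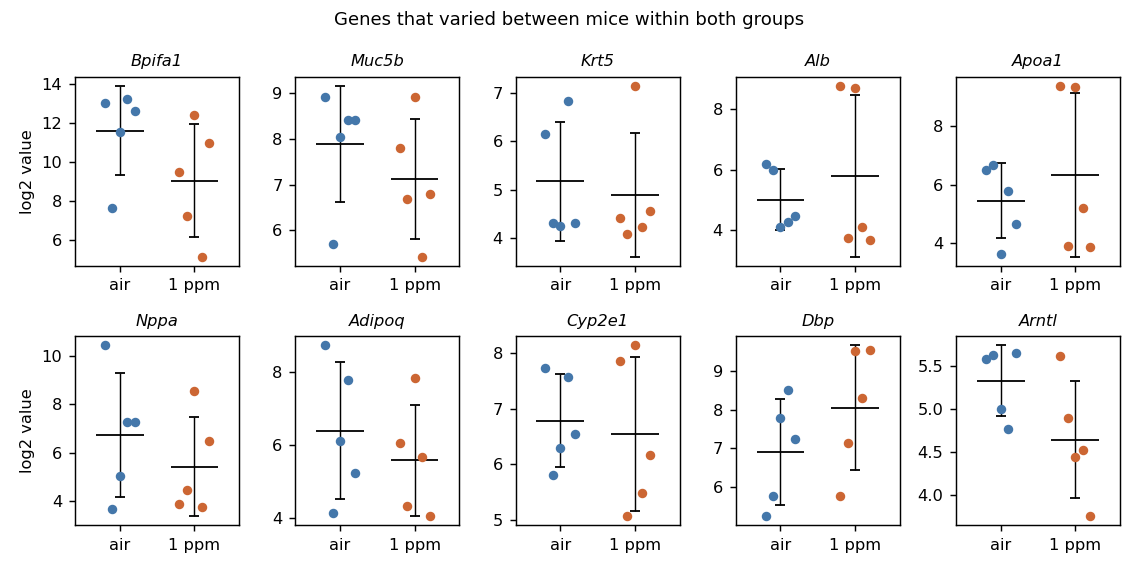
Log2 values of 10 genes that varied widely between mice of the same group, with 1 point per mouse and the mean ± SD of 5 mice. For Alb and Apoa1, mice 1 and 3 at 1 ppm stand apart from the other 3, and for Bpifa1 both groups span several log2 units.

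Genes of other tissues also varied between mice of a group. Liver genes were high in mice 1 and 3 at 1 ppm. Alb, which encodes serum albumin, was 8.77, 3.75, 8.69, 4.10 and 3.69 at 1 ppm and 6.19, 6.00, 4.11, 4.27 and 4.48 in air. Apoa1, an apolipoprotein, was 9.40 and 9.35 in those mice, with 3.84 to 5.20 in the other 3 and 3.62 to 6.67 in air. Serpina1a, a plasma protease inhibitor, was 9.69 and 9.57 there, 3.34 to 3.54 in the other 3, and at most 5.64 in air. Nppa, a hormone of the heart's atria, was 10.45, 3.68, 5.03, 7.25 and 7.26 in air and 3.89, 4.46, 8.53, 3.75 and 6.49 at 1 ppm. Adipoq, a hormone of fat, was highest in air mice 1 and 4 (8.75 and 7.80) and in mouse 3 at 1 ppm (7.83). Air mice 1 and 4 and mice 1 and 3 at 1 ppm were also the 4 with the highest Cyp2e1, a gene expressed strongly in liver and in fat. Whether tissue carried with the lung enters the values of Cyp2e1 was not tested. None of these genes was called by limma (adjusted p of 0.822 for Alb, 0.753 for Nppa and 0.831 for Adipoq). Without mice 1 and 3 at 1 ppm, limma called 545 genes in the fit of all other arrays, 276 of them among the 420, and 0 in the fit of the 8 arrays left of the comparison.

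Red blood cell genes had the highest median of the lists in the deposited values, whereas the thymus list was higher after quantile normalization (0.33 against 0.31) and cyclic loess (0.29 against 0.26). All 9 red blood cell genes measured were above 0, with a median of 0.28, which lay between 0.26 and 0.63 under the other scalings, and 0 of 9 were called. Slc4a1, the anion exchanger of red cells, had 7.32, 7.93, 6.94, 7.37 and 6.77 in air and 7.59, 8.0, 8.61, 7.58 and 7.60 at 1 ppm, with a change of 0.61 (0.08 to 1.14; limma, adjusted p = 0.465). The globin gene Hba-a1 gave 0.01 (-0.20 to 0.21) near the top of the range. Of 13 platelet genes 10 were above 0, with Gp1bb at 0.38 (-0.03 to 0.80). Selp, the adhesion receptor P-selectin of platelets and endothelium, was the member called and it fell (-0.73 ± 0.177; limma, adjusted p = 0.0242 and 0.503). Its values ran from 5.00 to 5.95 in air and from 4.21 to 5.25 at 1 ppm, and the call was lost without air mouse 4 or 5 or mouse 1 or 4 at 1 ppm (limma, adjusted p of up to 0.0683).

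The lists of immune genes held 1 call, where 2.46% of all genes were called, so this count shows nothing particular to them. Called were 0 of 18 T and NK cell, 11 B cell, 11 dendritic cell and 14 mast cell, basophil and eosinophil markers. So were 0 of 14 alveolar macrophage and 14 monocyte and interstitial macrophage markers. Of 11 interferon GTPases and of 12 class II and 10 class I antigen presentation genes, 0 were called. Of 23 cytokines and chemokines 0 were called, with Cxcl1 and Il33 lowest (both -0.58) and Il6 highest (0.43). Chil3, a chitinase-like protein of alveolar macrophages, gave -0.12 (-0.57 to 0.32) and Chil4 0.04 (-0.57 to 0.65). For H2-Eb1, an antigen-presenting class II molecule, air mouse 5 had 7.13 and the other 9 mice 10.31 to 11.27, and the change of 0.95 was not called (limma, adjusted p = 0.743). Rag1, the recombinase of developing lymphocytes and part of the thymus list, rose from 3.44, 3.65, 3.66, 3.40 and 3.68 to 4.32, 4.05, 3.68, 4.42 and 4.00 (0.53 ± 0.129; limma, adjusted p = 0.0253 and 0.503). Mouse 3 at 1 ppm was level with the highest air mouse, and the call was lost without mouse 1 or 4 at 1 ppm (limma, adjusted p of up to 0.0695). Of the 10 thymus genes 7 were above 0 with a median of 0.21, and the other 9 were not called. Rag2, the partner gene, gave 0.00, Dntt and Ptcra of developing T cells -0.11 and -0.00, and Foxn1, Arpp21, Psmb11 and Themis 0.44, 0.42, 0.34 and 0.27. Among interferon response genes 0 of 19 were called.

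Clock genes varied widely between mice of both groups. Dbp, a transcription factor driven directly by the clock, had 5.23, 5.75, 7.79, 8.51 and 7.23 in air and 5.76, 7.14, 9.52, 8.30 and 9.56 at 1 ppm. Arntl, which encodes the clock activator BMAL1, had 5.58, 5.63, 5.01, 4.77 and 5.66 in air and 5.61, 4.89, 4.45, 4.52 and 3.76 at 1 ppm. The mice with the lowest Dbp, mice 1 and 2 in air and mouse 1 at 1 ppm, had Arntl of 5.58 to 5.63, and the mouse with the highest Dbp, mouse 5 at 1 ppm, had the lowest Arntl. Air mouse 5 had the highest Arntl with Dbp at 7.23. The changes were 1.15 for Dbp (-0.50 to 2.81) and -0.68 for Arntl (-1.33 to -0.04), with adjusted p of 0.573 and 0.441 in limma's fit of 35 arrays. Of 18 clock genes 0 were called. Nr1d2 gave 0.49, Per2 -0.22, Per3 0.03 and Ciart -0.15. Immediate early genes, whose transcription starts within minutes of a stimulus, were below 0 in 24 of 26 with a median of -0.11 and 0 called. That median turned to 0.19 with a common interquartile range. Fos gave -0.29, Junb -0.11 and Egr1 -0.44. Fkbp5, a target of glucocorticoids, gave 0.49 (-0.32 to 1.30).

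The list of respiratory chain genes held 1 call. Sdhd, a membrane subunit of succinate dehydrogenase, fell from 5.59, 5.78, 5.80, 5.99 and 6.00 to 5.52, 5.24, 5.51, 5.29 and 5.38, without overlap (-0.44 ± 0.118; limma, adjusted p = 0.0365 and 0.494). The call was lost without any of air mice 2 to 5 or mouse 2 or 4 at 1 ppm (limma, adjusted p of up to 0.106). The list had 32 measured members, and Sdha, Sdhb and Sdhc gave 0.04, 0.01 and -0.03. Cholesterol synthesis genes were below 0 in 14 of 16 with a median of -0.19, led by Msmo1 (-0.58), Cyp51 (-0.52) and Idi1 (-0.46), and 0 were called. Their median lay between -0.16 and -0.01 under the other scalings. Over all 46 lists of pathway and cell type genes, 6 of 762 genes measured were called (0.787%), against 2.46% of all genes. Bright genes were rarely called: 4 of 2651 between 8 and 10 log2 and 0 of 917 above 10. Several lists were bright, such as ribosomal proteins (11.8 in the median air mouse) and the respiratory chain (10.2). The 2.46% is therefore not a matched background for them. The medians of the lists ran from -0.23 to 0.28, with 35 below 0 and 11 above.

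At the next concentration most genes differed in value from 1 ppm. Between 5 and 1 ppm 13606 genes were called (79.6%), 5313 higher at 5 ppm (31.1%) and 8293 lower (48.5%), and both comparisons share the 1 ppm mice. Abhd10, Taf5 and Tmem71, which fell at 1 ppm, had group means above that of air from 5 ppm up. Abhd10 had means of 5.26 in air, 4.30 at 1 ppm and 5.80, 5.78, 5.88, 5.86 and 5.82 from 5 to 120 ppm. Taf5 had 5.13, 4.18, 5.79, 5.75, 5.82, 5.84 and 5.84 in the same order, and Tmem71 6.10, 4.68, 7.42, 7.58, 6.86, 7.20 and 7.43. The 5 ppm mice were above those at 1 ppm by 1.5 for Abhd10, 1.61 for Taf5, 2.74 for Tmem71 and 1.58 for Gstm5 (limma, adjusted p of at most 3.14e-11). The genes followed here were chosen by their difference from air in these same 1 ppm mice. A difference from 1 ppm back towards air was thus favoured in advance, and these tests are no separate support for a change at 1 ppm. Lmx1a was 3.10 at 5 ppm and 3.06 at 120 ppm, near the 3.25 of air and below the 4.18 at 1 ppm, and Spata31d1d was 3.72 and 3.82, below both air and 1 ppm. S100a14 stood at 5.54 at 5 ppm, close to its mean at 1 ppm (5.71; limma, adjusted p = 0.341 for the difference). The interquartile range of the arrays moved with this comparison too, from 2.85 at 1 ppm to 3.48 at 5 ppm without overlap. With it as a covariate 2920 genes were called between 5 and 1 ppm. Arrays in air and at 1 ppm reached at most 3.16, and those from 5 to 120 ppm were all at least 3.28. No array batch is named in the labels, so a batch that split the series there cannot be told apart from exposure.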

How the data were processed

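Each of 35 mouse lungs gave 1 array. The authors deposited log2 values made with RMA, and Partek is also named, per the submitters' processing notes, which give no version or role for either tool. RMA corrects background, normalises arrays and summarises probes. How the arrays were split between scans is not given in the sources used here. The table held 45037 probe sets, of which 28898 had 1 gene symbol in the platform annotation, 551 several and 15588 none. The brightest probe set over all arrays stood for each of 17097 genes, and no filter was applied.

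A mean for each of 7 groups was fitted with limma 3.58.1 (lmFit and eBayes) in R 4.3.3 and 1 ppm was compared with air. Tests were two-sided with Benjamini-Hochberg adjustment over all genes, and the scripts were tested on simulated data. Standard errors come from the fit of 35 arrays and 95% intervals from a fit of the 10 arrays compared. The p-values reflect the variation among mice of the same group only. Arrays have no read depth, so their number limits the precision.

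Genes named were the 20 largest rises and 20 largest falls among called genes with all 5 mice at 1 ppm on the same side of the air mean, up to 3 called members of each of 46 lists, a fixed set of genes of styrene metabolism, cell types and the clock, and up to 5 called genes whose change dropped most, and those whose sign turned, with the interquartile range as a covariate. The comparison, lists and rule were chosen with earlier results of these data known. The uncalled list members named, Tyms and the genes of other tissues were picked with their values in view. Alternatives were other probe set rules, normalizations, weights, priors, covariates, thresholds, fits of the 10 arrays, and each mouse left out. Cyp2s1, Por, Nr1d1, Myh6 and Sln were not analysed here.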

Additional observations from a re-analysis of the deposited data

Results flagged for a closer look

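Sets of 5 mice, each for 1 gene in 1 group, were searched for a mouse apart from the others, 172 in all. In 10, the gap of a mouse to the nearest other mouse took up more of the group's range than Dixon's limit for 5 values. Chance alone flags about 1 in 20 such sets. H2-Eb1 had the largest gap, 0.901 of the range, from air mouse 5 at 7.13 log2 to the next air mouse at 10.33. Among the genes that rose, the gap was 0.847 for Lmx1a (mouse 5 at 1 ppm at 4.96, the next at 4.09), 0.816 for Tyms-ps (mouse 3 at 1 ppm, low at 3.53) and 0.729 for 1700017N19Rik (mouse 3 at 1 ppm, low at 3.68). It was 0.764 for Ces2a (air mouse 3, low at 3.69), 0.738 for Hectd2 (mouse 4 at 1 ppm, high at 4.98) and 0.747 for Tssk3 (mouse 1 at 1 ppm, high at 5.19). For Setdb1, which fell, air mouse 4 was low at 5.00 (0.759). For Cyp4b1 air mouse 1 was low at 12.18 (0.767), and for Chil3 mouse 5 at 1 ppm was high at 11.30 (0.713).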

How the results depend on the processing

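The count of 420 called genes was within 1.5 times of the main count with probe sets averaged per gene (416), quantile normalization (351), median centring (319), a trended and robust prior (371), no moderation (387) and, added after seeing the data, without mice 1 and 3 at 1 ppm (545). It was 772 with every probe set tested alone, 2226 with a common interquartile range, 168 with dim genes left out, 76 with array weights, 78 with the interquartile range and 643 with the main axis of spread within groups as a covariate. At an adjusted p under 0.01 it was 54, under 0.10 772, and with a change of at least 1.5-fold 120. Leaving out 1 mouse gave 179 to 687. The 10 arrays alone gave 3, and the replicate block, with the mouse number as a term, 425. Same-numbered mice did not pair: their deviations correlated from -0.206 to 0.309. Settings added after seeing the data gave 17 with 1 weight per group and 171 with cyclic loess. On the 10 arrays alone they gave 2 with array weights (1803 at an unadjusted p under 0.05) and 0 in each of 7 other fits. These 7, with their counts at an unadjusted p under 0.05, were without air mouse 1 and mouse 2 at 1 ppm (1227), without mice 1 and 3 at 1 ppm (1357), with the interquartile range as a covariate (763), a trended prior (1247), the replicate block (1327), cyclic loess (1037) and quantile normalization (1007). The cause of these differences was not tested. Between 5 and 1 ppm 13193 to 13434 genes were called with 1 mouse left out and 2920 with the interquartile range as a covariate. The difference in interquartile range was -0.22 to -0.14 without 1 mouse and -0.11 with 1 probe set per gene (exact p = 0.0635). The first component, not different between groups, gave -36.5 to 14.6 without 1 mouse.

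All 420 genes kept their sign with each mouse left out, and 419 did with the interquartile range as a covariate. As the 420 were called from these same mice, a kept sign was close to given. Of their calls, 156 to 362 were kept with 1 mouse left out and 33 with the covariate. Among genes named, Setdb1 took the other sign on the 10 arrays alone with that covariate (0.020), and Hdac2 did so with it on 35 arrays (0.023) and on 10 (0.0051). A common interquartile range gave called rises of 0.62 for Cyp2f2, 0.60 for Cyp4b1, 0.68 for Scgb1a1, 0.60 for Scgb3a2 and 0.69 for Ager, which were below 0 and not called in the deposited values. With that scaling the median of all genes above 10 log2 was 0.51, so these rises are not particular to the genes named. Signals near the ends of the array's range limit what can be read for the brightest and dimmest genes.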
